A study of Mus musculus with 4 samples.

Results

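The antigen presentation genes of MHC class I comprise the 10 genes H2-K1, H2-D1, B2m, Tap1, Tap2, Tapbp, Psmb8, Psmb9, Nlrc5 and Erap1. They were taken by name, and their promoters and gene bodies were located on build mm10 (GRCm38) of the mouse genome. Of the 10 genes, 9 had at least 1 promoter CpG and 8 at least 1 gene body CpG with enough reads in every tumor, against 20135 genes with such promoter CpGs and 18922 with such gene body CpGs in all.

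MHC class I molecules carry peptides from inside the cell to its surface, where CD8 T cells read them. Immunoproteasome subunits cut proteins into peptides, the TAP transporter moves the peptides into the endoplasmic reticulum, Erap1 trims them, and tapasin helps to load them onto a heavy chain that is bound to β2-microglobulin. Interferon gamma raises the transcription of these genes, Nlrc5 acts as their transactivator, and loss of antigen presentation is known as a route by which tumors escape checkpoint blockade.

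Reduced representation bisulfite sequencing (RRBS) covers the CpG-rich ends of fragments cut at CCGG, and each read of a CpG cytosine there is either methylated or not. The tumors came from the mouse lung adenocarcinoma line 344SQP (parental), which carries a mutant p53 allele, or from its derivative 344SQR (resistant), which had acquired resistance to anti-PD1. Cells of either line were injected under the skin of the leg of female 129Sv/Ev mice aged 12 to 16 weeks, to which the lines are syngeneic, and tumors of 2 mice a line were measured. All 4 mice received anti-PD1 (10 mg/kg into the peritoneum, 4 doses from day 4), and the tumors were taken 24 h after the last dose.

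Summed over all CpG sites, the coverage was 116794455 and 138331886 CpG calls in parental replicates 1 and 2 and 160548303 and 174689402 in resistant replicates 1 and 2. A CpG cytosine was used if at least 20 reads covered it in all 4 tumors, which left 1081201 sites. Their mean methylation was 31.0% and 32.7% in the parental and 29.4% and 29.1% in the resistant tumors. A promoter ran from 1000 bp before to 500 bp after each annotated transcription start site (TSS), and a gene body was the rest of the gene. Region methylation is the average over the qualified sites of a region. All differences are resistant minus parental, in percentage points.

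Promoters of the class I genes fell into 2 kinds. H2-K1, H2-D1, B2m, Tap1, Psmb9 and Erap1 had under 5% methylation in every tumor, as did 10401 of all 20135 promoters (51.7%). Tapbp, Psmb8 and Nlrc5 had means between 14.5% and 40.4%, and in each of them the window held unmethylated CpGs next to the TSS together with methylated CpGs farther off. The median difference over the 9 promoters was −0.256 points, beside −0.233 over all promoters. Tap1 and Psmb9 entered this median separately with the same 15 sites, and it equals their difference.

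The test after the study's methods took every read as independent (a likelihood ratio test per site, combined over a region by Stouffer's z, with Benjamini-Hochberg adjusted p under 0.05). It called 2 of the 9 promoters, H2-K1 and Psmb8, both lower in resistant tumors. Of all promoters it called 38.5%, 5932 lower and 1818 higher. edgeR's quasi-likelihood test, which counts the spread between tumors of a line, called 0 of 9 promoters and 0.0745% of all promoters. None of the 9 had an unadjusted edgeR p under 0.05, beside 1769 of 20124 promoters in all, and limma called 0 of the 9 and 0 of all. The tumors of the lines did not overlap at 3 of 9 promoters (H2-K1, Psmb8 and Nlrc5) and at 40.1% of all promoters. These shares are no higher than those of promoters in general. For a single value, 2 tumors against 2 cannot give a two-sided exact permutation p below 0.333.

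Gene bodies held most of the methylated sites. The likelihood ratio test called 6 of 8 gene bodies, all lower in resistant tumors (H2-D1, Tap1, Tap2, Tapbp, Nlrc5 and Erap1). Of all gene bodies it called 65.4%, 11023 lower and 1346 higher. edgeR called 0 of 8 and 0.00529% of all gene bodies. None of the 8 had an unadjusted edgeR p under 0.05, beside 3339 of 18892 gene bodies in all, and limma called 0 of the 8 and 0 of all. The lines did not overlap at 4 of 8 gene bodies (H2-D1, Tap2, Tapbp and Erap1) and at 54.2% of all. The median difference was −1.65 points over the 8 gene bodies and −3.12 points over all gene bodies. DNA of a whole tumor is a mix of tumor and host cells, so a change of methylation within cells and a change in the mix of cells cannot be told apart. Counted by site, 10 of 163 promoter sites and 30 of 196 gene body sites of the 10 genes passed an adjusted p of 0.05, against 24.4% of all sites. All 10 promoter sites were lower in resistant tumors, and of the gene body sites 23 were lower and 7 higher. Most called promoters and gene bodies of all genes were lower as well. The 5 called sites of the Psmb8 promoter are also called gene body sites of Tap1 and are counted in both.

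**Figure D1:**
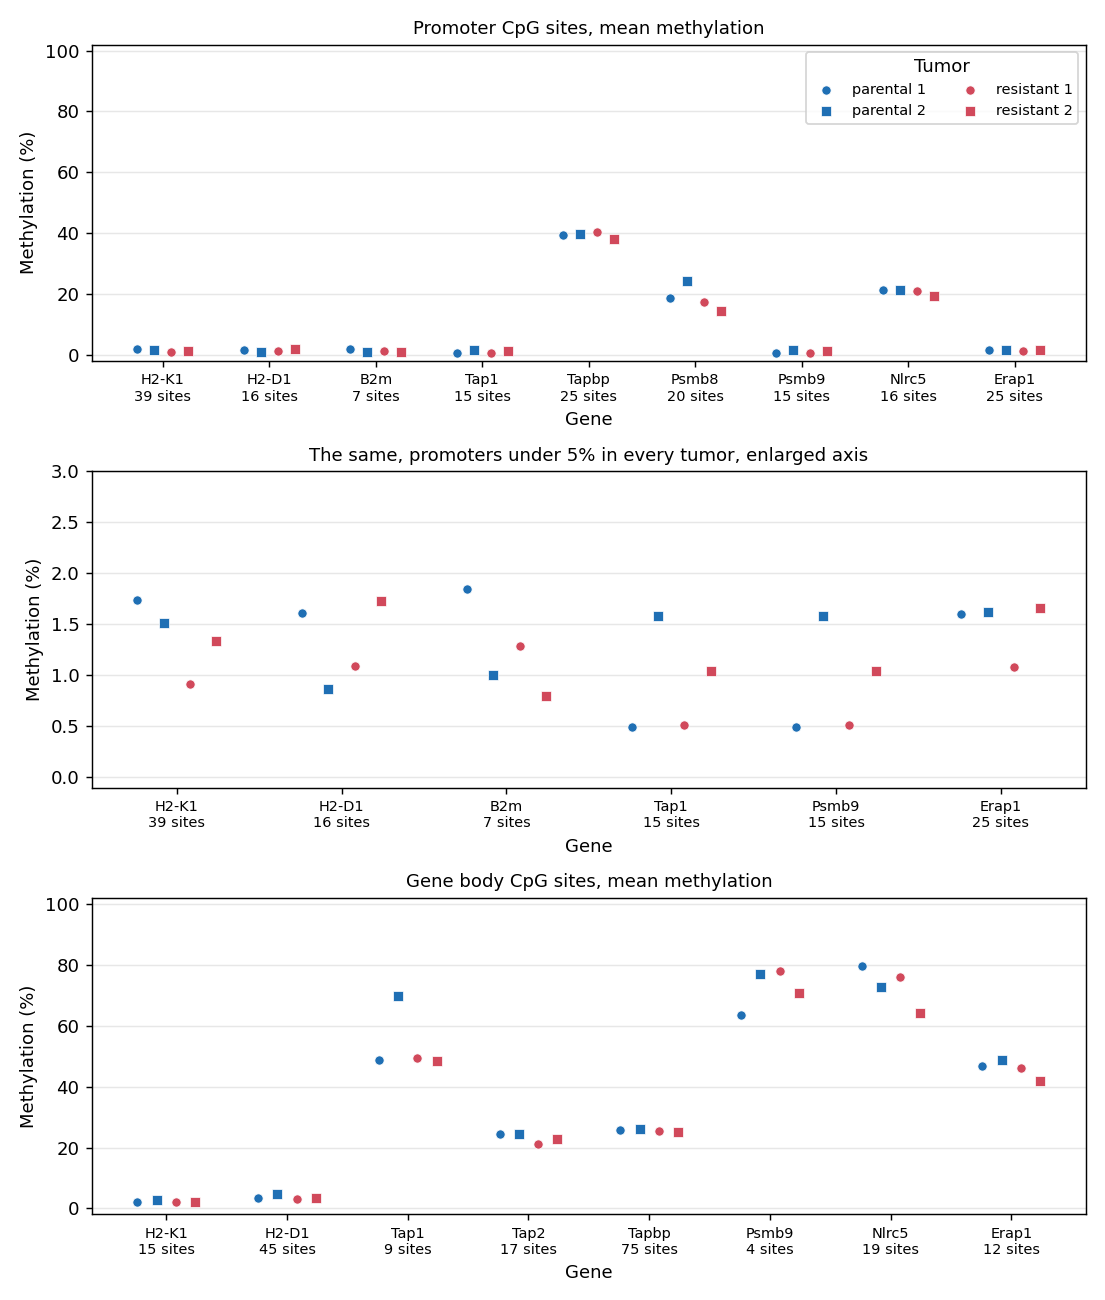
Mean methylation in percent (y axis) of the qualified CpG sites of each class I gene (x axis, with the number of sites) in the 4 tumors, for promoters, for the promoters under 5% in every tumor on an enlarged axis, and for gene bodies. Circles are replicate 1 and squares replicate 2 of the parental (blue) and resistant (red) line, with no error bars. The points of the lines lie close together in most genes, and in the Tap1 gene body parental replicate 2 stands at 69.9% while the other tumors lie between 48.6% and 49.4%.

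H2-K1 and H2-D1 encode the classical class I heavy chains. H2-K1 (chr17:33996017-34000347, minus strand) had 39 promoter sites, with methylation of 1.74% and 1.51% in the parental and 0.917% and 1.34% in the resistant tumors, at 45 to 259 reads a site. Both resistant tumors were below both parental tumors, and the line means were 1.63% ± 0.159 and 1.13% ± 0.297 (SD, n = 2 each). The difference of −0.498 points had an adjusted p of 0.000302 by the likelihood ratio test, while edgeR gave a log2 odds ratio of −0.61 (SE 0.27) with an adjusted p of 0.602. Without parental replicate 2 the likelihood ratio test no longer called the promoter (adjusted p = 0.055), although the difference was −0.610 points. Without resistant replicate 1 it was −0.288 points and without resistant replicate 2 −0.708 points, both called.

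At H2-K1, 3 promoter sites passed the test alone, all at low levels. The CpG at position 34000090, in an intron 167 bp past the nearest TSS, had 4.62% (95% Wilson interval 2.36 to 8.86) and 5.15% (2.97 to 8.78) methylation in the parental tumors. In the resistant tumors it had 1.54% (0.602 to 3.90) and 0.461% (0.0814 to 2.56). Only the intervals of parental replicate 2 and resistant replicate 2 were apart, and this site rests on 1 to 12 methylated reads in each tumor. The 15 gene body sites of H2-K1 had 1.92%, 2.65%, 2.14% and 2.15% methylation in parental replicates 1 and 2 and resistant replicates 1 and 2, and were not called (adjusted p = 0.597).

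H2-D1 (chr17:35262730-35267499, plus strand) had 16 promoter sites with 1.62% and 0.868% methylation in the parental and 1.1% and 1.73% in the resistant tumors. The lines overlapped, and the difference of 0.168 points stood beside SDs of 0.529 and 0.446 points within the lines. Its 45 gene body sites lay mostly in the first coding exons and introns, close to the unmethylated promoter, and had 3.52% and 4.69% in the parental and 2.94% and 3.48% in the resistant tumors. The resistant tumors were lower by a small margin, and the call (adjusted p = 0.00262) was lost without parental replicate 2 (−0.314 points, adjusted p = 0.42). Farther in, 3 intronic sites (chr17:35264402-35264427) had 10.8% and 9.31% in the parental and 5.04% and 5.24% in the resistant tumors, and 1 of them was called. H2-K1 and H2-D1 are close paralogs, so that reads of 50 bases may be placed in the wrong copy, and their values are uncertain to that extent.

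B2m (chr2:122147686-122153083, plus strand) encodes β2-microglobulin, the light chain shared by class I molecules. Its 7 promoter sites had 1.85% and 1% methylation in the parental and 1.29% and 0.796% in the resistant tumors, at 72 to 118 reads a site. The lines overlapped, and the difference of −0.38 points was not called by either test (adjusted p = 0.523 by the likelihood ratio test and 0.894 by edgeR). These 7 sites come from a window with 49 CpGs, or 98 cytosines on both strands. Of the 64 CpGs of the B2m gene body, no cytosine qualified, and the only cytosine listed in all tumors had as few as 1 read.

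The X2 box and the Y box of class I promoters are bound by the protein complex that Nlrc5 joins, so the CpGs in and between them were looked up. RefSeq promoter sequences on GRCm38.p6 (250 bases before to 50 after the start) were at hand for 8 of the 10 genes, and not for Tap2 and Nlrc5. On either strand, the letters TGACG (X2 box) were found in 5 of the 8 genes and in 20.8% of all 32851 promoters, and ATTGG (Y box) in 6 of 8 and in 37.4% of all. In H2-K1, H2-D1 and B2m both stand on the strand of the gene with 20 bases between them. Counted on either strand, this spacing was found in 31 of all promoters (0.0944%), those of the 3 genes included. The spacing was not among the motifs planned beforehand. The gamma-interferon activated site (TTCNNNGAA) was found in Psmb8 and in 8.30% of all promoters, and the core of the interferon-stimulated response element in B2m and Erap1 and in 3.44% of all. A match is a run of letters and not a measured binding site. The 30 bases with both boxes are shown 5′ to 3′ on the strand of each gene, with the boxes in capitals, to place the methylation values that follow:
H2-K1: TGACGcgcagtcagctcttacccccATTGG
H2-D1: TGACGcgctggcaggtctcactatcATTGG
B2m: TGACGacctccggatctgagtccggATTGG

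The H2-K1 stretch (chr17:34000359-34000388, minus strand) lies upstream of the annotated transcripts, the H2-D1 stretch (chr17:35262993-35263022, plus strand) in the 5′ UTR that GENCODE gives the gene and upstream of the RefSeq start, and the B2m stretch (chr2:122147609-122147638, plus strand) upstream. H2-K1 and H2-D1 share 23 of the 30 bases, H2-K1 and B2m 13, and H2-D1 and B2m 12. Each count includes the 5 bases of either box, which match because the stretches were found by them. In H2-K1, 2 CpG cytosines of the stretch qualified, and each had 1 methylated of 48 reads in parental replicate 1 and 0 methylated reads in the other tumors (54, 55 and 52 reads, which allow at most 6.64%, 6.53% and 6.88% by the Wilson interval). In H2-D1, the CpG of the X2 box had 1.77%, 1.06%, 0% and 0% methylation in parental replicates 1 and 2 and resistant replicates 1 and 2, at 94 to 147 reads, and the CpG beside it had 0.885%, 0%, 0% and 1.45%. In B2m, the only qualified cytosine of the stretch lies in a CCGG, and had 8.33% and 2.74% in the parental and 6.67% and 0% in the resistant tumors (72, 73, 90 and 106 reads). At this depth no difference between the lines was detectable in these 3 stretches.

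Tap1 and Tap2 encode the subunits of the peptide transporter, and with Psmb8 and Psmb9 they form a cluster on chromosome 17. Tap1 (chr17:34187553-34197225, plus strand) and Psmb9 (chr17:34181987-34187764, minus strand) start next to each other on opposite strands, and their promoter windows held the same 15 qualified sites. These sites had 0.495% and 1.58% methylation in the parental and 0.514% and 1.05% in the resistant tumors, at 32 to 110 reads. The lines overlapped, and both replicates 1 were lower than both replicates 2. The difference was −0.256 points (adjusted p = 0.559 by the likelihood ratio test and 0.865 by edgeR).

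The 9 gene body sites of Tap1 all lie at its 3′ end (chr17:34196736-34197020, 2 in a coding exon and 7 in the 3′ UTR). Their methylation was 48.8% and 69.9% in the parental and 49.4% and 48.6% in the resistant tumors, at 47 to 190 reads. Parental replicate 2 stood apart, and parental replicate 1 lay within the range of the resistant tumors. The difference of −10.3 points was called by the likelihood ratio test (adjusted p = 3.25e-06) but not by edgeR (log2 odds ratio −0.47, SE 0.49, adjusted p = 0.647), and without parental replicate 2 it was 0.255 points (adjusted p = 0.893).

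Tap2 (chr17:34203527-34216321, plus strand) had no qualified promoter site. Its window holds 10 CpGs, and of their 20 cytosines 7 were listed in any tumor and 0 in all 4. Its 17 gene body sites had 24.3% and 24.5% methylation in the parental and 21.2% and 22.8% in the resistant tumors. The resistant tumors were lower, with means of 24.4% ± 0.0762 and 22% ± 1.12 (SD, n = 2), but the call (adjusted p = 0.0275) was lost without parental replicate 2 (−2.35 points, 0.324), without resistant replicate 1 (−1.61 points, 0.163) and at equal depth (−2.28 points, 0.217), against −2.41 points with all tumors and reads. With the full GENCODE annotation, an alternative chosen after seeing the data, it was lost as well (−4.61 points over 6 sites, 0.172).

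Within Tap2 the level depended on the position. An intronic stretch of 11 sites that begins 1169 bp past the TSS (chr17:34204696-34204954) had 4.89% and 4.71% in the parental and 3.22% and 3.96% in the resistant tumors. It lies at a further TSS of the full GENCODE annotation, and the Tap2 promoter of that annotation consists of these 11 sites (adjusted p = 0.136). In the next coding sequence, 3 sites at chr17:34205656-34205732 had 26% and 28.4% in the parental and 11.5% and 18.0% in the resistant tumors. The first of them had 33.7% (Wilson interval 24.7 to 44.0) and 30.4% (23.2 to 38.6) against 2.53% (0.697 to 8.77) and 12.3% (7.99 to 18.4), with an adjusted p of 1.3e-08 for the site. The intervals of the lines did not overlap at this CpG, which lies in a CCGG, and without CCGG sites the gene body difference of Tap2 was 0.244 points. Near the end of the gene, 3 coding sites at chr17:34215393-34215414 were methylated in all tumors, at 94.0% and 92.9% in the parental and 96.8% and 96.6% in the resistant line.

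Tapbp (chr17:33915899-33929292, plus strand) encodes tapasin. Its 25 promoter sites had 39.2% and 39.7% methylation in the parental and 40.4% and 38.0% in the resistant tumors, so that the resistant tumors lay on both sides of the parental tumors. The difference was −0.215 points (adjusted p = 0.84), and edgeR gave a log2 odds ratio of the other sign (0.19, SE 0.35, adjusted p = 0.918). Of the 25 sites, 14 belong to a stretch of 36 sites in the first exons and introns (chr17:33919853-33920469) with 1.07% and 1.36% in the parental and 0.902% and 1.23% in the resistant tumors. The other 11 belong to a stretch of 27 sites upstream, within the neighbouring gene Zbtb22 (chr17:33917519-33918625), with 93.0% and 93.5% in the parental and 94.1% and 90.7% in the resistant tumors. The promoter mean near 40% thus averages nearly unmethylated and mostly methylated CpGs.

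The 75 gene body sites of Tapbp had 25.6% and 26.1% methylation in the parental and 25.4% and 25.0% in the resistant tumors. Of them, 38 lie within Zbtb22 and upstream of the Tapbp transcripts of the basic GENCODE annotation, although the annotated span of the gene starts before them. The difference was −0.619 points, with both resistant tumors lower, and the call (adjusted p = 0.0072) was lost without parental replicate 2 (−0.389 points, 0.416) and at equal depth (−0.602 points, 0.0674). edgeR gave a log2 odds ratio of the other sign (0.14, SE 0.25, adjusted p = 0.797). The CpG at 33918126 in the methylated upstream stretch had 93.9% and 94.5% in the parental and 81.5% and 70.4% in the resistant tumors (site adjusted p = 4.87e-13). The 13 sites in the 3′ UTR (chr17:33929193-33929283) were nearly unmethylated, at 2.36%, 2%, 2.21% and 3.21%, unlike the 3′ end of Tap1.

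Psmb8 and Psmb9 encode catalytic subunits that replace their constitutive counterparts in the immunoproteasome. Psmb8 (chr17:34197721-34201454, plus strand) had 20 promoter sites with 18.5% and 24.3% methylation in the parental and 17.2% and 14.5% in the resistant tumors, at 20 to 190 reads. Both resistant tumors were lower, with line means of 21.4% ± 4.13 and 15.8% ± 1.91 (SD, n = 2). The difference of −5.62 points was called by the likelihood ratio test (adjusted p = 3.67e-06), but not without parental replicate 2 (−2.70 points, adjusted p = 0.075). edgeR adds the reads of all sites, so that sites with more reads weigh more, and gave a log2 odds ratio of 0.02 (SE 0.38, adjusted p = 0.995).

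Most of the difference at Psmb8 came from CpGs that also belong to Tap1. The 7 sites at chr17:34196930-34197020 lie in the 3′ UTR of Tap1, at −860 to −770 bp from the Psmb8 TSS, and had 45.7% and 67.3% methylation in the parental and 46.6% and 39.4% in the resistant tumors. Parental replicate 2 was the high tumor, and the lines overlapped. The 13 sites next to the TSS (chr17:34197551-34197774) had 3.87% and 1.22% in the parental and 1.29% and 1.02% in the resistant tumors, and none of them was called. All 5 called sites of the Psmb8 promoter were thus also called sites of the Tap1 gene body and are not independent of it. The site with the smallest adjusted p (2.63e-06), at 34196930, had 55.1% (Wilson interval 44.7 to 65.0) and 80.7% (68.7 to 88.9) in the parental and 45.5% (36.0 to 55.2) and 22.5% (14.4 to 33.5) in the resistant tumors. In the Psmb8 gene body, with 84 CpGs, no cytosine reached more than 3 reads in every tumor.

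**Figure D2:**
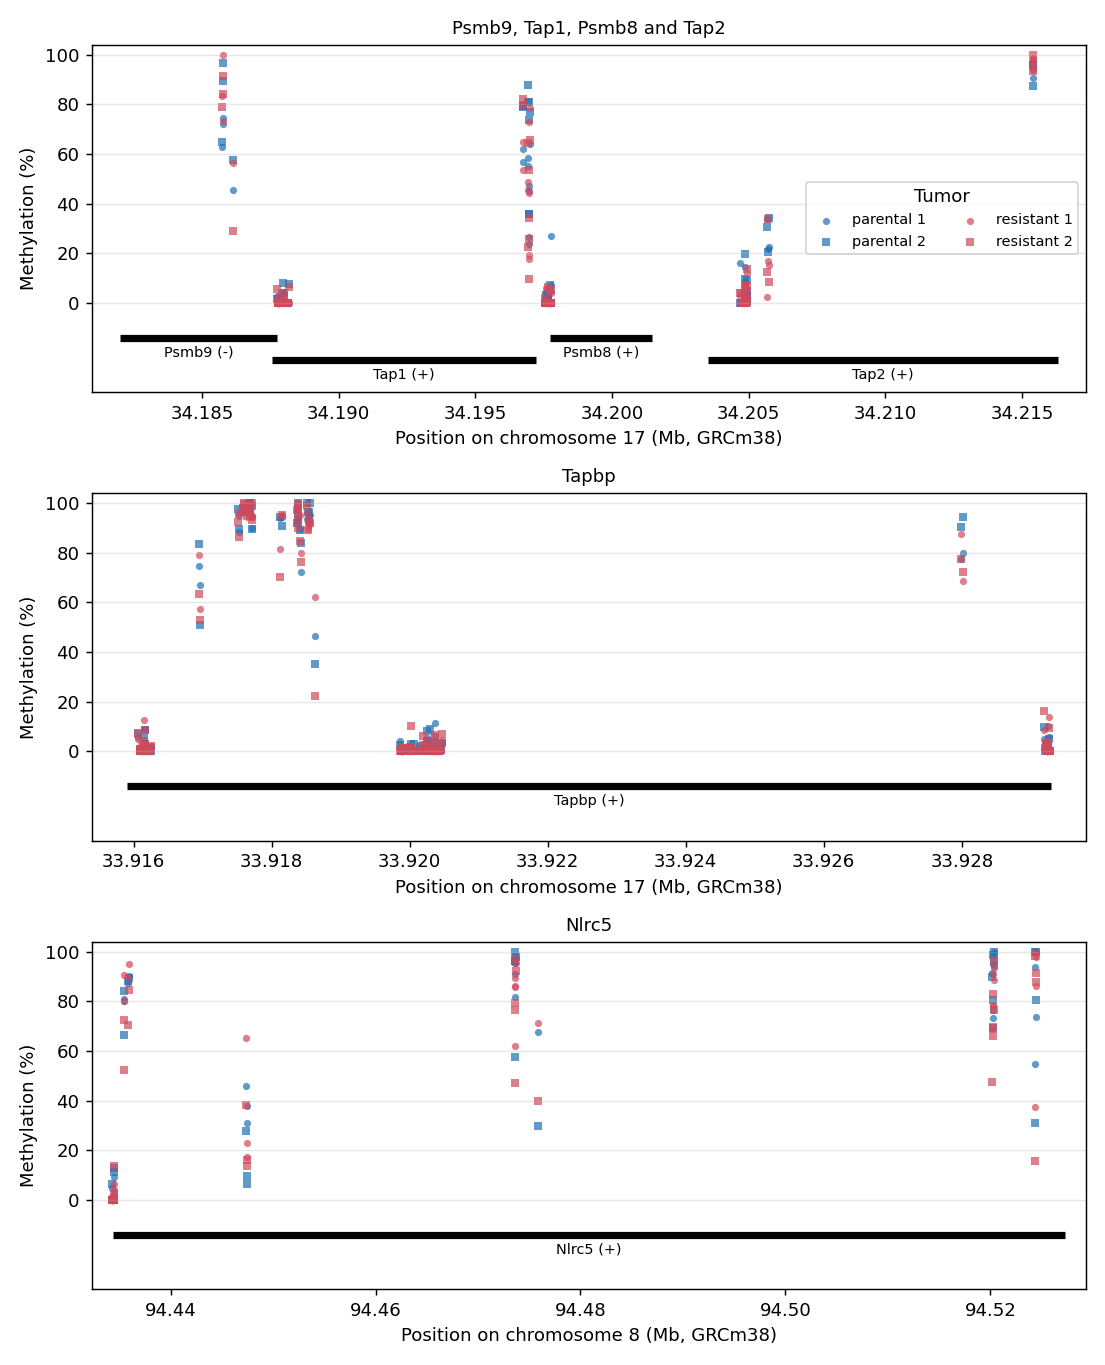
Methylation in percent (y axis) of each qualified CpG site by its position on GRCm38 (x axis, Mb) at the Psmb9, Tap1, Psmb8 and Tap2 cluster, at Tapbp and at Nlrc5, in the 4 tumors (circles replicate 1, squares replicate 2, parental blue, resistant red). Black bars are the genes with their strand. Sites at the shared start of Psmb9 and Tap1 lie near 0%, and those at the 3′ end of Tap1, upstream of Psmb8, spread between the tumors.

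Psmb9 had the promoter it shares with Tap1 and 4 gene body sites (chr17:34185742-34186136, 3 in coding exons and 1 in an intron). These had 63.7% and 77.1% methylation in the parental and 78.2% and 70.9% in the resistant tumors, at 30 to 57 reads. The lines overlapped, and the difference of 4.14 points was not called (adjusted p = 0.211). It ranged from −2.53 points without parental replicate 1 to 10.8 points without parental replicate 2, where it was called (adjusted p = 0.00495).

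Erap1 (chr13:74639568-74693201, plus strand) encodes the aminopeptidase that trims peptides in the endoplasmic reticulum. Its 25 promoter sites had 1.60% and 1.62% methylation in the parental and 1.08% and 1.66% in the resistant tumors, at 88 to 223 reads. The lines overlapped (−0.242 points, adjusted p = 0.505). Its 12 gene body sites, which include 6 of the unmethylated stretch past the promoter window, had 46.9% and 48.8% in the parental and 46.2% and 42.0% in the resistant tumors. The resistant tumors were lower, and the call (−3.74 points, adjusted p = 0.0186) was lost without parental replicate 2 (−2.80 points, 0.135) and without resistant replicate 2 (−1.62 points, 0.645). An intronic stretch of 5 sites (chr13:74656807-74656914) had 90.2% and 94.7% in the parental and 89.4% and 78.9% in the resistant tumors. At its CpG 74656807, methylation was 67.9% (Wilson interval 54.8 to 78.6) and 82.9% (72.9 to 89.7) in the parental tumors and 54.8% (44.7 to 64.6) and 25.8% (17.9 to 35.8) in the resistant tumors (adjusted p = 3.16e-09 for the site). Resistant replicate 2 was far below the other tumors, whose intervals overlapped in part.

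Nlrc5 (chr8:94434356-94527272, plus strand) encodes the transactivator of the class I genes. Its 16 promoter sites had 21.2% and 21.4% methylation in the parental and 20.9% and 19.4% in the resistant tumors. The lines did not overlap, but the difference of −1.17 points was not called (adjusted p = 0.165 by the likelihood ratio test and 0.988 by edgeR). It was −0.392 points without resistant replicate 2 and −1.96 without resistant replicate 1. The window joins 4 annotated start sites. The 12 sites at the 5′ end of the gene (chr8:94434285-94434460) had 1.48% and 2.55% in the parental and 1.13% and 1.40% in the resistant tumors, and the 4 sites at an internal start (chr8:94524318-94524489) had 80.5% and 77.9% in the parental and 80.3% and 73.2% in the resistant tumors. The start at the 5′ end was therefore nearly unmethylated in all 4 tumors.

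The 19 gene body sites of Nlrc5 had 79.6% and 72.9% methylation in the parental and 76.2% and 64.1% in the resistant tumors. The lines overlapped, with resistant replicate 2 the lowest. The likelihood ratio test called the difference of −6.04 points (adjusted p = 3.47e-09), and edgeR did not (log2 odds ratio −0.31, SE 0.45, adjusted p = 0.754). Without resistant replicate 2 the difference was −0.0079 points (adjusted p = 0.959), without resistant replicate 1 −12.1 points, without parental replicate 1 −2.69 points and without parental replicate 2 −9.40 points.

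The introns of Nlrc5 differed among themselves. The 6 sites at chr8:94520168-94520386 had 88.4% and 89.1% in the parental and 83.0% and 73.1% in the resistant tumors, with no overlap. Its CpG 94520168 had 91.3% (Wilson interval 84.4 to 95.4) and 89.8% (84.1 to 93.6) in the parental tumors and 69.0% (61.7 to 75.4) and 47.6% (40.3 to 55.1) in the resistant tumors (adjusted p = 1.35e-14 for the site), and the intervals of the lines were apart. It lies in a CCGG. The 3 sites at chr8:94447353-94447460 had 38.3% and 14.6% in the parental and 35.1% and 22.7% in the resistant tumors, and here the tumors differed by replicate number more than by line. The same held for the coding CpG 94475824, with 67.6% and 29.9% in the parental and 71.4% and 40% in the resistant tumors.

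Most methylated reads in the 6 promoters under 5% came from CpGs inside CCGG, the sequence at the ends of RRBS fragments. In these promoters, 20 CCGG sites had a mean of 5.33%, 4.51%, 3.84% and 5.81% methylation in parental replicates 1 and 2 and resistant replicates 1 and 2, and 82 other sites had 0.578%, 0.657%, 0.247% and 0.320%. At the other sites the levels were higher in both parental tumors than in both resistant tumors. In all promoters under 5%, 73783 CCGG sites had a mean of 6.11% over the 4 tumors and 341000 other sites 0.509%, so that the gap is shared with unmethylated promoters in general. These other sites had 0.546% and 0.574% in the parental and 0.449% and 0.467% in the resistant tumors, the same order of the lines as in the class I genes. Its cause was not tested.

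The wider pathway was described by 70 genes in 5 lists, of which 49 had promoter sites. The likelihood ratio test called 12 of the 49, 8 lower and 4 higher, beside 38.5% of all promoters. edgeR and limma called 0, and 4 of the 49 had an unadjusted edgeR p under 0.05, beside 1769 of 20124 in all. The lines did not overlap at 20 of the 49 (40.8%) and at 40.1% of all, and the median difference was −0.0876 points beside −0.233. None of 8 genes for peptide loading and trimming and none of 5 genes of the proteasome and its activators was called by any of these tests, none had an unadjusted edgeR p under 0.05, and all 13 had under 5% methylation in every tumor. Among 21 regulators, the likelihood ratio test called 2 lower and 1 higher, beside 38.5% of all promoters. Of 10 class II genes only H2-DMa had promoter sites, and it was not called.

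Promoters of some related genes were read for comparison. Psmb5, the constitutive counterpart of Psmb8, had 1.21% and 1.59% methylation in the parental and 1.92% and 0.953% in the resistant tumors, and Psmb6, the counterpart of Psmb9, had no qualified promoter site. Rfx5, a subunit of the complex that Nlrc5 joins, had 1.39% and 0.748% against 0.664% and 0.733%. Irf1, a transcription factor of the interferon response, had 1.27% and 0.787% against 0.788% and 0.810%. None of these 3 promoters was called.

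Some of the other class I heavy chain genes showed larger differences than H2-K1 and H2-D1. Of 14 such genes with promoter sites, the likelihood ratio test called 9, 6 lower and 3 higher, beside 38.5% of all promoters. The lines did not overlap at 8 of the 14 (57.1%), beside 40.1% of all. edgeR and limma called 0 of the 14, and 4 had an unadjusted edgeR p under 0.05, as did 1769 of 20124 promoters in all. H2-Q7 (18 sites, window chr17:35438155-35439655) had 15.7% and 21.1% methylation in the parental and 5.05% and 2.80% in the resistant tumors (edgeR log2 odds ratio −2.55, SE 0.40, adjusted p = 0.17). H2-Q6 (21 sites, chr17:35423850-35425377) had 15.5% and 19.3% against 6.12% and 4.38% (−1.92, SE 0.29, adjusted p = 0.153). Both nonclassical genes were lower in both resistant tumors, and as near-identical neighbours they may share reads.

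H2-Q10 (35 sites, chr17:35469089-35470589), a gene for a secreted class I molecule, differed in the other direction, with 12.6% and 24.9% in the parental and 25.2% and 36.3% in the resistant tumors (log2 odds ratio 0.91, SE 0.47, adjusted p = 0.655). Fcgrt (7 sites, windows chr7:45103245-45104851), the heavy chain of the neonatal Fc receptor, had 89.2% and 93.0% against 85.4% and 73.7% (−1.18, SE 0.58, adjusted p = 0.633). With a tumor left out, the H2-Q10 difference ranged from 5.78 points (without parental replicate 1) to 18.1 (without parental replicate 2), and that of Fcgrt from −17.4 (without resistant replicate 1) to −5.71 (without resistant replicate 2). These 4 genes were named because their differences exceeded 10 points. The likelihood ratio test called them, and edgeR, fitted with line and tumor alone, did not.

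Markers of other cells were read in the same way. Of 21 leukocyte genes, 6 had promoter sites, with 1 to 4 sites each. By line means all 6 were lower in resistant tumors, as were 13633 of all 20135 promoters. The likelihood ratio test called 5 of the 6, all lower, beside 38.5% of all promoters (5932 lower and 1818 higher). The mean methylation of the 6 leukocyte promoters was 56.8% and 63.6% in the parental and 44.7% and 34.2% in the resistant tumors. In the gene bodies of 15 leukocyte genes the mean was 60.2% and 56.6% against 54.5% and 48.0%, with 10 called lower and 2 higher. Over all gene bodies the mean was 62.6% and 63.0% against 59.2% and 55.5%. The likelihood ratio test called 65.4% of them, 11023 lower and 1346 higher. By line means, 13 of the 15 leukocyte gene bodies were lower and 2 higher. Among the lower ones, Adgre1 differed by −18.7, Csf1r by −17.1, Cd4 by −15.5 and Itgam by −13.9 points. Ptprc, which defines leukocytes, was among the 2 higher ones. It had 39.9% and 31.9% in the parental and 56.3% and 60.9% in the resistant tumors over 6 gene body sites. Over the promoters of 4 genes of stroma and vessels the mean was 47.3% and 53.1% against 37.7% and 55.5%. Over 4 genes of epithelium and lung it was 6.58% and 7.68% against 6.72% and 8.46%. The likelihood ratio test called 1 of the 4 stroma and vessel promoters, higher. It called 2 of the 4 epithelium and lung promoters, 1 lower and 1 higher. The gene bodies of 6 genes of stroma and vessels had 69.7% and 64.6% against 60.1% and 50.2%, all 6 called lower, and of 6 gene bodies of epithelium and lung genes 4 were called lower and 1 higher. edgeR and limma called none of these 14 promoters, and 1 of them, of a leukocyte gene, had an unadjusted edgeR p under 0.05. They also called none of these gene bodies, of which 5 of 15 leukocyte, 0 of 6 stroma and vessel and 0 of 6 epithelium and lung genes had an unadjusted edgeR p under 0.05, beside 3339 of 18892 in all. Calls on the Y chromosome, in female hosts, were 0.0413% and 0.0257% of the autosomal calls in the parental and 0.0563% and 0.018% in the resistant tumors, higher in both replicates 1. The part of the cell mix in the differences of the class I genes was not tested.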

How the data were processed

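RRBS libraries of 4 tumors, each from a different mouse, were grouped by line from the sample labels. By their processing notes, the authors used Trim Galore 0.4.1 and cutadapt 1.9.1 for trimming and Bismark with Bowtie 1.1.2 for mapping to mm10. They deposited, per tumor and CpG cytosine, read counts (coverage) and percent methylated in the methylKit format. The genome is that of C57BL/6J while the mice were 129Sv/Ev, and sites were not filtered for strain variants.

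Methylated reads were recomputed as coverage times percent. Sites that reached 20 reads in every tumor were placed by the GENCODE vM21 basic annotation. As in methylKit, a site's p came from a likelihood ratio test in logistic regression on line (floor 2.2e-16), and regions were combined by Stouffer's z with the sign of each site. edgeR's quasi-likelihood test ran on summed methylated and unmethylated counts with a tumor effect, and limma on log2 ratios after 1 read was added. All adjusted p-values (Benjamini-Hochberg, two-sided) cover all promoters, gene bodies or sites. Wilson intervals (95%) cover counting error only, as reads carried no molecular identifiers. The tests were tested on simulated data.

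Genes named were the 10 members, wider pathway genes with at least 3 promoter sites and an edgeR adjusted p under 0.05 or a difference of at least 10 points, and Psmb5, Psmb6, Rfx5 and Irf1. H2-DMa and the leukocyte genes were named outside this rule. Members and lists were chosen with earlier results of these data known. Alternatives were minimums of 10 and 50 reads, merged strands, a cap at the 99.9th percentile of coverage, equal depth (seed 7), the first TSS only, the whole gene span, each tumor left out, a replicate block, limma and an adjusted p of 0.01. Leaving out CCGG sites and the full GENCODE annotation were chosen after seeing the data. Python 3.11.15, numpy 2.4.6, scipy 1.17.1, pandas 2.3.3, matplotlib 3.10.9, R 4.3.3, edgeR 4.0.16 and limma 3.58.1 were used.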

Additional observations from a re-analysis of the deposited data

How the results depend on the processing

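The likelihood ratio test called 2 member promoters under every setting except without parental replicate 2, where it called 0, so the range over left-out tumors was 0 to 2. For gene bodies that range was 2 to 6, with 4 at equal depth and at an adjusted p of 0.01, 8 over whole gene spans, and 5 without CCGG sites or with the full annotation. Whole gene spans were tested for 10 members, and gene bodies of the full annotation for 7. Over all genes the likelihood ratio test called 13353 of 23399 whole spans and 11875 of 17982 gene bodies of the full annotation. edgeR called 0 member promoters and 0 member gene bodies under every setting. In edgeR, 1 member promoter had an unadjusted p under 0.05 without CCGG sites and 1 with the block. With a tumor left out, edgeR takes the lone tumor of its line to vary like the others.

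Tumors share only a replicate number, and nothing says that they were paired. Deviations of same-numbered tumors correlated with r = 0.663 over promoters and 0.608 over gene bodies, which are not independent. With the replicate block the Mantel-Haenszel test called 2 member promoters and 6 member gene bodies. Over all genes it called 7549 of 20135 promoters and 12207 of 18922 gene bodies. edgeR with the block called 0 member promoters and 0 member gene bodies. Over all promoters edgeR called 2444 with the block and 15 without, and over all gene bodies 4293 and 1. With the block edgeR also called 9 of 49 promoters of the wider pathway (0 without it), 6 of them among the 14 other heavy chain genes, including H2-Q7, H2-Q6, H2-Q10 and Fcgrt (adjusted p = 3.91e-21, 1.31e-17, 0.00267 and 0.0378). Among markers it called 1 of 6 leukocyte, 1 of 4 stroma and vessel and 0 of 4 epithelium and lung promoters, and 5 of 15, 2 of 6 and 1 of 6 of their gene bodies, all of them 0 without the block. Over all promoters edgeR called 2 at equal depth and 70 without CCGG sites, and limma 0. With a tumor left out (parental replicates 1 and 2, then resistant replicates 1 and 2), it called 21, 2, 0 and 0 promoters and 47, 62, 0 and 0 gene bodies over all genes.

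Of 134 single differences of members under settings with all tumors, 127 kept direction and side of the threshold. The shared promoter of Tap1 and Psmb9 is counted under both genes. Without CCGG sites, 3 changed sign, none of them called there: the H2-D1 promoter to −0.0802 points, the H2-K1 gene body to 0.135 and the Tap2 gene body to 0.244. The cause was not tested. Of the 17 member differences, 2 changed sign without parental replicate 1 and 6 without parental replicate 2. Leaving out resistant replicate 1 reversed 3 of them, and leaving out resistant replicate 2 reversed 2. Over left-out tumors, differences that changed sign ranged from −0.206 to 0.543 points at the H2-D1 promoter, −0.801 to 0.0414 at B2m, −0.797 to 0.286 at the shared promoter of Tap1 and Psmb9, −1.41 to 0.981 at Tapbp, −0.53 to 0.0457 at Erap1, −0.446 to 0.516 at Psmb5 and −0.473 to 0.012 at Irf1, and in gene bodies from −0.502 to 0.223 at H2-K1, −20.9 to 0.255 at Tap1 and −2.53 to 10.8 at Psmb9.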
